A study of Mus musculus with 4 samples.

Results

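The regions described here are the 300 widest clusters of distal H3K27ac in mouse liver sinusoidal endothelial cells (LSECs), out of 9257 such clusters in all. H3K27ac peaks of 2 libraries were merged where they overlapped, and a merged region was kept when it held a peak of each library and lay more than 2.5 kb from both ends of every protein-coding gene. Kept regions at most 12.5 kb apart were stitched into clusters, and the clusters were ordered by the summed width of their merged regions, with the gaps between regions left out. The members were thus selected on measured peak width and on the presence of a peak in each library, so their width, number of regions, and enrichment are given as a description with no test. They made up 3.24% of the clusters, held 1403 of the 13669 distal regions, and carried 15.0% of the distal merged bases (1412 of 9430 kb).

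The study profiled H3K27ac by ChIP-Seq in LSECs isolated from mouse liver, to look for putative enhancers of the type IV collagen genes *Col4a1* and *Col4a2*. Replicates 2 and 3 are the H3K27ac libraries of a single condition, and the input libraries of the same numbers were not used here. According to the study's methods, cells were collected from collagenase-perfused livers with beads against CD146, an endothelial surface protein. These methods also describe a short culture on a collagen-coated dish, without saying whether it preceded the ChIP. The labels give neither treatment nor genotype for these libraries, and nothing states whether they came from separate animals, so differences between the 2 lists may be technical.

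Acetylation of lysine 27 on histone H3 marks nucleosomes around active promoters and active enhancers. Long stretches in which acetylated elements follow each other at short distances are often found near genes that are important for the identity of a cell, and in endothelial cells these include genes of the ETS transcription factors and of vascular receptors and junction proteins. LSECs line the liver sinusoids, take up waste molecules from blood through scavenger receptors, and, unlike most endothelium, are fenestrated and sit on little basement membrane. H3K27ac alone does not separate an enhancer from a promoter, so the regions are called distal clusters here and not enhancers.

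Each cluster was given 1 protein-coding gene, namely the gene whose body holds most of its merged bases or, where no body holds any, the gene at the smallest distance. This is an assignment by position and no measure of which gene a region acts on. The 300 members were given 279 genes. The last members inside the limit were those of *Fndc3b* (3200 bp), *Cd38* (3200 bp), and *Dgkz* (3196 bp). The first clusters outside it were given *Snd1* (3187 bp), *Celf4* (3187 bp), and *Atp6v1c1* (3186 bp), so the limit falls within a continuous run of widths.

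The bases of the peaks themselves were not read here. Starts of annotated transcripts that fall inside a member show what some of the acetylated regions hold, and for 7 of these the 200 bases before the start are printed from RefSeq (GRCm38.p6), 5′ to 3′ on the strand of the gene. They were picked because they belong to large members or to genes named in the results. Capitals mark GGAA or its reverse complement, the core recognised by ETS factors.
Sash1, chr10:8886071-8886270, minus strand: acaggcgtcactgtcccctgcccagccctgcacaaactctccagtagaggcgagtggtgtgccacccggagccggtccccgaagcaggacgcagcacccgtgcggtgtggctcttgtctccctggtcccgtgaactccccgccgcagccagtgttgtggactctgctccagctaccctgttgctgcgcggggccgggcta
Erg, chr16:95459349-95459548, minus strand: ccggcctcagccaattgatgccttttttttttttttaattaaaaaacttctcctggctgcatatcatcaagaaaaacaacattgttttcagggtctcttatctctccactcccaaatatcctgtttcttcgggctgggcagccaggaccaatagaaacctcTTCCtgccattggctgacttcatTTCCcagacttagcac
Dab2, chr15:6386548-6386747, plus strand: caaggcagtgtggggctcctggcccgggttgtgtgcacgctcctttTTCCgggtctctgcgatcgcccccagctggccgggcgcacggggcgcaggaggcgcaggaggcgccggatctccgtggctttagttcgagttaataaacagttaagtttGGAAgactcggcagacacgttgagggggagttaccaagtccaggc
Egfl7, chr2:26586436-26586635, plus strand: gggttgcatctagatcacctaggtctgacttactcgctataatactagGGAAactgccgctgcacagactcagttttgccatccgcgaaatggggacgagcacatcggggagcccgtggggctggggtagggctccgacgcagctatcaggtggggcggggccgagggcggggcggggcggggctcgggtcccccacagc
Malat1, chr19:5802673-5802872, minus strand: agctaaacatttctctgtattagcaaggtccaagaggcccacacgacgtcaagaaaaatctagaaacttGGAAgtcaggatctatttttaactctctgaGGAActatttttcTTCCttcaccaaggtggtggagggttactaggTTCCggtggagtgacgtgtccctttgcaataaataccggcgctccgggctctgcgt
Mir22hg, chr11:75461339-75461538, plus strand: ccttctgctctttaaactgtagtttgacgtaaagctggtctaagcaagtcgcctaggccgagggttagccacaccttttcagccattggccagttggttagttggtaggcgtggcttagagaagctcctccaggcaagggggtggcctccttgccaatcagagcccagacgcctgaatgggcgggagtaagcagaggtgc
Junos, chr4:95094613-95094812, plus strand: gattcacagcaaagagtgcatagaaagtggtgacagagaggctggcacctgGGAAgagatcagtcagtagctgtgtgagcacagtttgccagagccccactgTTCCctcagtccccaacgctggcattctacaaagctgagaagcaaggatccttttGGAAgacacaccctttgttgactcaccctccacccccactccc

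The *Erg* window, which precedes an internal start of this ETS factor gene, held 2 such cores, and the window of *Malat1*, an abundant nuclear long noncoding RNA (lncRNA), held 4. The windows of *Sash1* and *Mir22hg* held none. Their G and C content ran from 43.0% at *Erg* to 67.5% at *Sash1*. In the 116 distinct windows of the table that lie in members, GGAA was present in 86.2%, against 89.0% of all 32817 windows of the same length. AP-1 sites (TGANTCA) were present in 12 of the 116 (10.3%), against 5.48% of all windows, and KLF sites (CCCCACCC) in 10.3%, against 7.90%. The shares were 5.17% against 4.13% for the NF-κB pattern GGGNNTTCC, 57.8% against 58.2% for the E-box CANNTG, 16.4% against 18.1% for GATAA, 12.9% against 13.3% for the SOX pattern ACAAAG, and 37.1% against 38.3% for the forkhead core TGTTT. Both strands were searched, the E-box and AP-1 patterns read the same on either strand, and every match of the NF-κB pattern also contains an ETS core. Several windows belong to the same gene and overlap, and a match of letters is no evidence of binding.

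microRNA genes lay within 2.5 kb of the span of 7 members (2.33%), against 47 of the 8957 other clusters (0.525%). The spans of members are wider, which the comparison does not take into account. The mature sequences of 6 of these microRNAs are printed from RefSeq because the names of the nearest protein-coding genes would hide them. Capitals mark the seed, bases 2 to 8, with which a microRNA pairs with its targets.
miR-126a-3p: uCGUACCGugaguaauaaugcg
miR-23a-3p: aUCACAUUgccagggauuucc
miR-27a-3p: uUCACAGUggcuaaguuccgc
miR-24-3p: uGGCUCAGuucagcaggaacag
miR-22-3p: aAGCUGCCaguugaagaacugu
miR-139-5p: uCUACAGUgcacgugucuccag

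The 6 seeds were all different. *Mir126a*, the endothelial microRNA gene hosted by *Egfl7*, lay inside the cluster given *Agpat2* (place 100, 4.73 kb of merged regions). The cluster given *Zswim4* (place 12, 9.04 kb) ended 0.323 kb from *Mir23a*, 0.477 kb from *Mir27a*, and 0.62 kb from *Mir24-2*, which are transcribed together. *Mir22* lay 0.264 kb from a single acetylated region of 5.44 kb, given *Wdr81* (place 65), that contains the start of its host transcript *Mir22hg*. *Mir139* lay inside the cluster of *Pde2a* (place 42), a phosphodiesterase gene.

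The deposited lists held 26975 peaks in replicate 2 and 64498 in replicate 3, 2.39 times as many. Reads are not part of these lists, the depth is therefore unknown, and no counting error can be attached to a width or fold. Of 24199 merged regions with a peak of each library, 56.5% passed the distance limit. Of 34 genes that mark LSECs, 25 (73.5%) had a shared region within 1 kb of a gene end, against 44.1% of all protein-coding genes. Among markers of other cells, the same held for 3 of 20 hepatocyte genes, 1 of 16 hepatic stellate cell genes, 4 of 16 Kupffer cell genes, none of 8 cholangiocyte genes, and 1 of 12 lymphocyte genes.

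A pair of members stood apart from the rest before any gene was considered. The MACS fold of a peak is the ratio of its signal to background, and its −log10 q grows with both this ratio and the depth of reads beneath it. Across members, the highest −log10 q divided by the highest fold had a median of 2.04 in replicate 2 and 4.94 in replicate 3. For the cluster given *Esp38* (place 51) these ratios were 26.9 and 135, from folds of only 10.4 and 13.4 with −log10 q of 279 and 1801. That cluster was a single region of 5.87 kb, lay 102 kb from the gene it was given, and overlapped *Rn18s-rs5*, a pseudogene of the 18S ribosomal RNA, and the lncRNA gene *AY036118*. For the cluster inside *Sfi1* (place 128) the ratios were 5.56 and 42.8, and its highest folds, 4.81 and 9.71, were the lowest of all members. It consisted of 10 regions spread over 55.9 kb, with no region wider than 0.716 kb, and overlapped pseudogenes. The third highest ratios among the members were 2.87 and 7.10, so these clusters are separate from a tight band formed by the others. Neither gene is on a list, so no count of listed genes below changes without these clusters. Whether repeated copies of these sequences in the genome contributed reads was not tested.

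**Figure D1:**
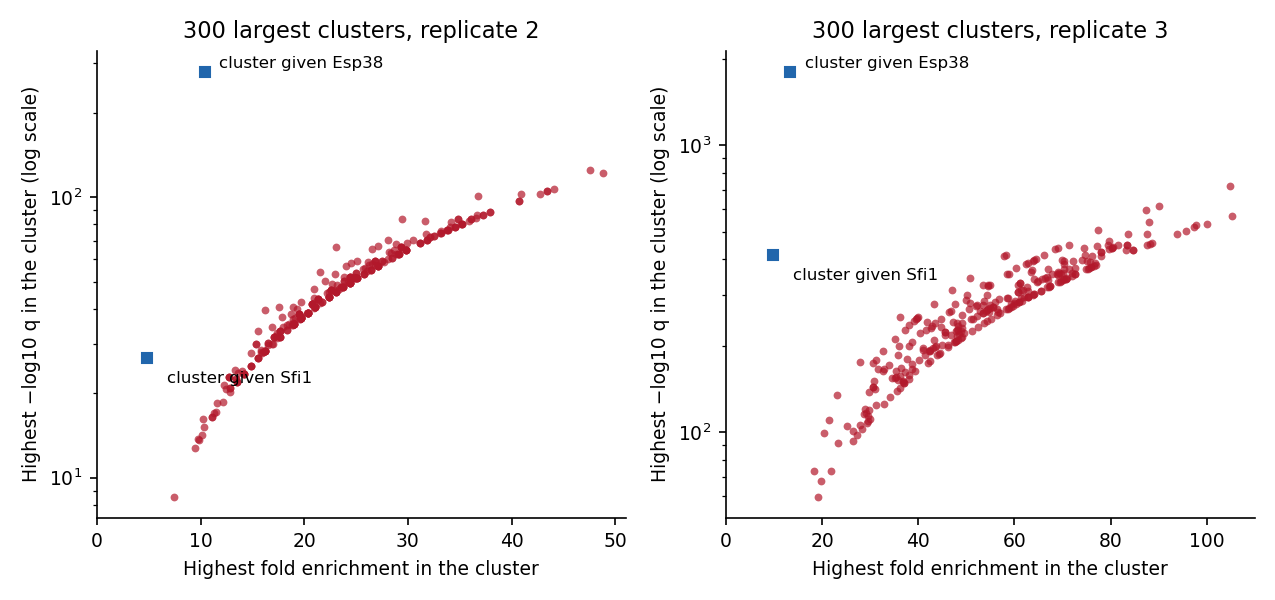
Highest fold enrichment (x axis) against highest −log10 q (y axis, log scale) in each of the 300 largest clusters, in replicate 2 (left) and replicate 3 (right), with each point a cluster. The clusters given *Esp38* and *Sfi1* (blue squares) lie above the band of the other members, with −log10 q of 1801 and 415 in replicate 3 at folds of 13.4 and 9.71.

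Members consisted of several regions set apart by gaps. Their summed width ran from 3.20 to 13.4 kb (median 4.07), against a median of 0.682 kb in the other clusters. They held 1 to 13 regions (median 4), spanned 3.23 to 78.6 kb (median 18.8), and merged regions covered a median of 23.7% of the span. The widest region of a member carried a median of 38.0% of its summed width. Only 10 members consisted of 1 region, while 71.6% of all clusters did. The largest span and the largest number of regions both belonged to *Ets1*, the smallest span (3.23 kb) to *Txnrd1*, and the widest single region, 6.0 kb, lay in the cluster given *Ccny*, a cyclin gene. The slope of the scaled curve of width against place reached 1 at 572 clusters (2494 bp), so the 300 members lie on the steep side of that point.

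**Figure D2:**
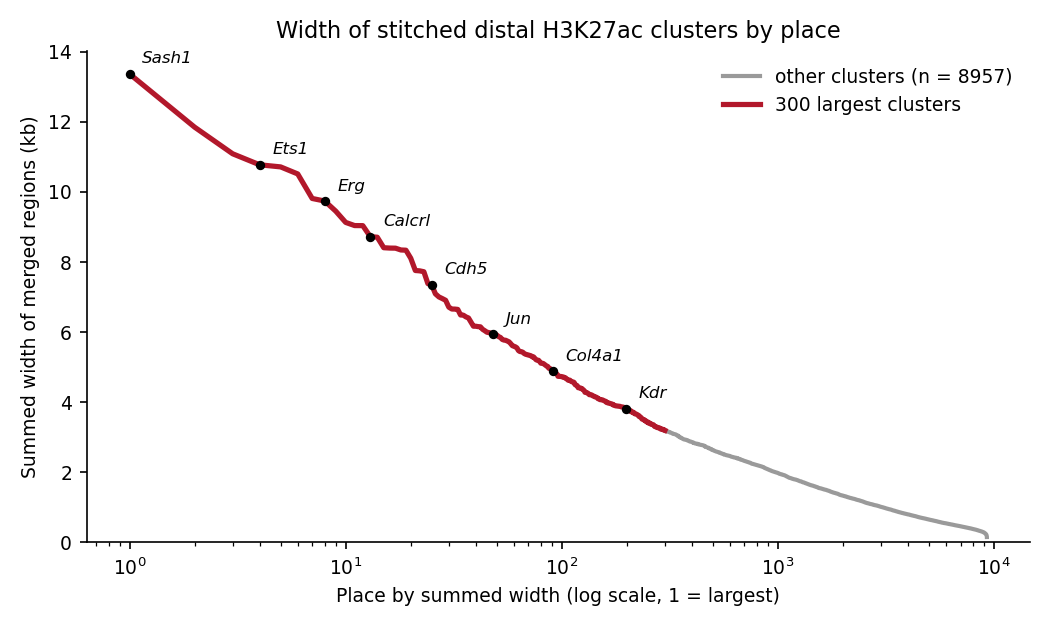
Summed width of merged regions (y axis, kb) against place by width (x axis, log scale) for all 9257 stitched distal clusters, with the 300 largest in red and the other 8957 in grey. The curve falls from 13.4 kb at *Sash1* to 3.20 kb at the last member without a step at the limit, and black points mark 8 clusters named in the text.

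The widest cluster of all lay inside *Sash1*, which codes for a scaffold protein of endothelial inflammatory signalling. It held 12 regions with 13.4 kb of acetylated sequence in a span of 70.4 kb. Its strongest regions, of 3017 and 2817 bp, had folds of 29.1 and 25.1 in replicate 2 and of 43.0 and 43.5 in replicate 3. A neighbouring cluster in the same gene, 15.7 kb away, was also a member (place 170, 3.95 kb). The 25 largest members otherwise fell into a few kinds of genes. Vascular regulators were *Ets1* (10.8 kb), *Erg* (9.74 kb), *Calcrl* (8.72 kb), and *Cdh5* (7.35 kb). Genes of membrane traffic, endocytosis, and lysosomes were *Dab2* (8.34 kb), a clathrin adaptor gene, *Ctsb* (7.72 kb), for the protease cathepsin B, and *Slc38a9* (7.75 kb), for a lysosomal amino acid sensor.

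Lipid and matrix enzymes among the largest members were *Cerk* (10.5 kb), the ceramide kinase gene, and *Cemip2* (9.13 kb), for a cell-surface hyaluronidase. Hyaluronan uptake is a known function of LSECs. Cytoskeletal genes were *Nav1* (11.1 kb), for a microtubule-associated protein, and *Abi1* (8.4 kb), for a subunit of the WAVE actin regulator. *Chd7* (7.76 kb) codes for a chromatin remodeller and *Irf2bpl* (8.4 kb) for a transcriptional regulator. Others by this assignment were *Ccny* (11.8 kb), *Lhfpl2* (10.7 kb), *Aopep* (9.81 kb), *Sh3bp5* (9.45 kb), *Klf14* (9.04 kb), *Zswim4* (9.04 kb), *Dlgap1* (8.71 kb), *Spdye4c* (8.34 kb), *Rusc2* (8.11 kb), and *Ttc7b* (7.39 kb).

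For several of these the name of the nearest protein-coding gene says little. The cluster given *Klf14* lay 117 kb from that gene and overlapped the lncRNA gene *Lncpint*, as did a second member 91.9 kb further on, given *Mkln1* (place 53). The cluster given *Spdye4c* lay 161 kb from it and contained a start of *Morrbid*, a lncRNA of myeloid cells. Another of the largest members contained the start of *Malat1*, and the next member, given *Frmd8* (place 265) at a distance of 17.2 kb, overlapped *Neat1*, another abundant nuclear lncRNA. Across all members, 102 overlapped a lncRNA gene and 11 a pseudogene. No share of the other clusters stands beside these counts. Members have wider spans (median 18.8 kb, against 0.687 kb in the others), so the counts do not show a trait of members.

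Endothelial transcription factor genes were given a member in 6 of 50 cases (12%). The background was 1.27% of all protein-coding genes (279 of 21887) and 5.34% of the 5227 genes given any distal cluster. Such genes were also rich in distal clusters of any size, since 42 of the 50 had one (84.0%), against 23.9% of all protein-coding genes. Of these 42 genes, 14.3% had a member. The members were those of *Ets1*, *Erg*, *Tcf4*, *Zeb2*, *Ets2*, and *Klf6*. *Ets1* and *Erg* code for ETS factors that bind the GGAA core, and ERG is a main keeper of endothelial identity. *Tcf4* codes for an E protein and *Zeb2* for a zinc finger repressor.

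The *Ets1* cluster held 13 regions over 78.6 kb and 80.5% of its merged bases lay in the gene body. Its summed peak width was 4.47 kb in replicate 2 and 10.8 kb in replicate 3. Its strongest region in replicate 2 (fold 26.4) was the first of the cluster by position, chr9:32695108-32696502, and its strongest in replicate 3 (fold 62.8) was the third, chr9:32709476-32710623. The libraries thus placed their highest fold on different regions, although both were strong in each (26.4 and 23.0 in replicate 2, 52.8 and 62.8 in replicate 3).

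The *Erg* cluster lay deep inside the gene, 77.4 kb from its nearer end. It held 7 regions in 28.4 kb, with a summed peak width of 2.89 kb in replicate 2 and 9.74 kb in replicate 3. One region of 1814 bp covers the internal start whose upstream bases are printed above, and its fold was only 11.5 in replicate 2 and 13.6 in replicate 3. The highest folds in the cluster were 17.4 and 36.5, on regions without a start in the table. *Ets1* and *Erg* had no shared region within 1 kb of an end of the gene.

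*Tcf4* was given 2 members (6.29 and 3.40 kb), both in its body, with highest folds of 40.9 and 16.9 in replicate 2 and of 50.8 and 30.6 in replicate 3. The *Zeb2* cluster (4.80 kb) had highest folds of 36.6 and 64.0. The members given *Ets2* (3.31 kb) and *Klf6* (3.27 kb) were outside the gene, at 106 and 56.0 kb. Of the other factors on the list, *Elk3* (3.05 kb) and *Foxo1* (2.91 kb) came closest to the limit. *Gata4*, the master regulator of LSEC specification, had 5 clusters with no more than 2.15 kb in any of them, and the widest clusters of *Klf2*, *Nr2f2*, and *Sox17* had 1.62, 1.49, and 1.28 kb.

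**Figure D3:**
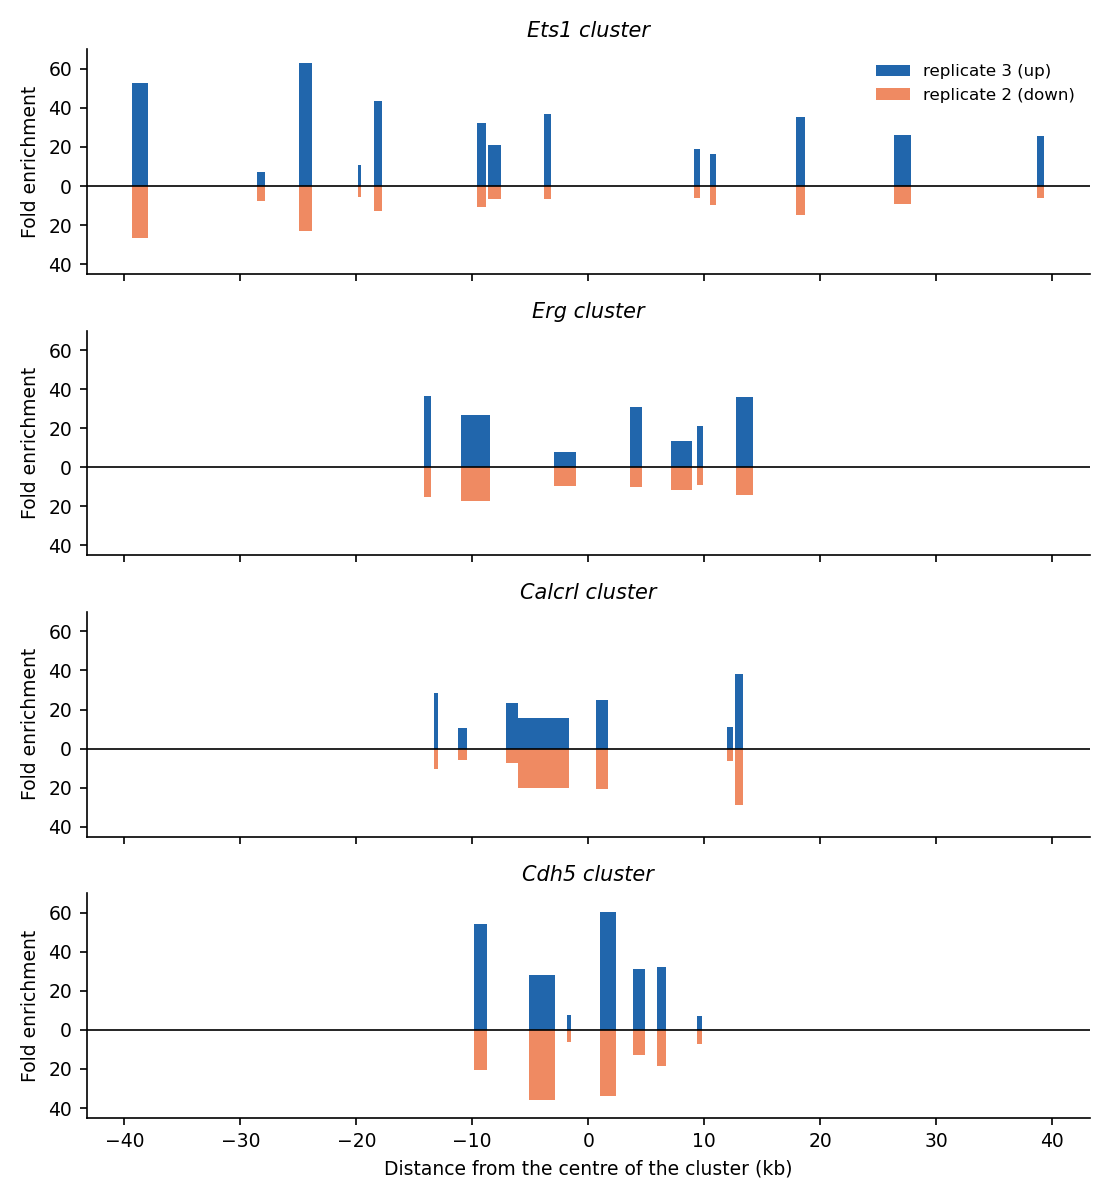
Merged regions of the *Ets1*, *Erg*, *Calcrl*, and *Cdh5* clusters, drawn to scale as distance from the centre of the cluster (x axis, kb). Bar width is the width of the region and bar height its highest fold enrichment, upward for replicate 3 and downward for replicate 2. The *Ets1* cluster spans 78.6 kb with 13 regions, and the others 19.7 to 28.4 kb with 7 regions each.

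Genes of angiogenic and endothelial surface receptors were given a member in 8 of 48 cases (16.7%), and 40 of the 48 had a distal cluster. *Calcrl* codes for the receptor of adrenomedullin, a peptide needed for vessel integrity. Its cluster (place 13) held 7 regions with 6.17 kb of peaks in replicate 2 and 8.60 kb in replicate 3, including a region of 4.35 kb. *Cdh5*, for VE-cadherin of the endothelial junction, followed at place 25 with 4.64 and 7.31 kb and highest folds of 36.0 and 60.3. *Nrp2* (5.62 kb), a co-receptor for VEGF and semaphorins, and *Adgrf5* (4.97 kb), an adhesion receptor, also held their clusters in the gene body.

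The other receptor clusters lay outside protein-coding bodies, and those of *Cd34* and *Cd93* and the wider of *S1pr1* overlapped lncRNA genes. *S1pr1*, for the sphingosine 1-phosphate receptor that stabilises junctions, was given 2 members, 48.5 and 47.8 kb from it on either side, with 5.25 and 4.63 kb of merged regions. The cluster of *Cd34* (5.43 kb) lay 14.8 kb away. The clusters of *Kdr* (3.82 kb), the main VEGF receptor gene, and *Cd93* (3.59 kb) lay 96.9 and 78.3 kb away. The *Cd93* cluster was among the most enriched, with highest folds of 34.8 in replicate 2 and 83.5 in replicate 3, while those of *Kdr* were 25.8 and 36.2. *Flt1* and *Flt4*, the other VEGF receptor genes, each reached 1.45 kb in their widest cluster.

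AP-1 and other immediate early genes are switched on within minutes to hours of stress or growth signals. They were given a member in 6 of 28 cases (21.4%), the highest share of the lists, against 1.27% of all protein-coding genes. Of the 19 listed genes with a distal cluster, 31.6% had a member, against 5.34% of all genes with one. The 6 genes were *Jun* (5.95 kb), *Atf3* (4.65 kb), *Myc* (4.63 and 3.21 kb), *Ier5* (4.59 kb), *Dusp6* (4.18 kb), and *Nr4a2* (3.58 kb). All are short genes, of 3.19 to 17.2 kb, and only the cluster of *Nr4a2* overlapped the gene itself. The *Jun* cluster held 6 regions 30.1 kb from the gene, overlapped the lncRNA gene *Junos*, and had highest folds of 28.1 and 61.3. The *Myc* clusters lay 47.0 and 205 kb away, the latter being the largest distance of any member to its gene. Both *Myc* clusters overlapped the lncRNA gene *Pvt1*, and those of *Atf3*, *Ier5*, and *Dusp6* also overlapped lncRNA genes. In the same list, 26 of 28 genes (92.9%) had a shared region at a gene end, against 44.1% of all protein-coding genes. The part of the cell isolation in the acetylation of these genes was not tested.

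NF-κB and inflammatory genes were given a member in 3 of 32 cases (9.38%). *Nfkbia*, for the inhibitor that NF-κB itself induces, had 3 regions with 5.67 kb in all, starting 4.13 kb from the gene, and a neighbouring member 15.2 kb away was given *Psma6* (place 227). *Ccl2*, for the monocyte attractant, had 5 regions (3.92 kb) at 11.2 kb from the gene, with folds up to 18.7 and 47.0. *Nfkbiz* held 3.40 kb in its own body, and merged regions covered 89.2% of that cluster. A further 20 of the 32 genes had a smaller distal cluster.

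Genes of actin regulation and adhesion were given a member in 7 of 40 cases (17.5%), of which 6 are named here. *Dock4* (5.99 kb) and *Dock1* (4.74 kb) code for activators of Rac, *Arhgef3* (3.40 and 3.23 kb) for an exchange factor of small GTPases, *Pxn* (5.58 kb) for the focal adhesion protein paxillin, and *Tns3* (3.89 kb) and *Lpp* (4.05 kb) for other adhesion proteins. Of these, all but the *Lpp* cluster, 55.2 kb from the gene, lay in the gene body. These are long genes, with a median of 75.3 kb over the list, against 17.2 kb over all protein-coding genes, and the part of gene length in the count was not tested.

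Of 28 basement membrane genes, *Col4a1* alone was given a member (3.57%). Its cluster, at place 91, held 6 regions over 36.3 kb, chr8:11249528-11285856, with 2.07 kb of peaks in replicate 2 and 4.89 kb in replicate 3. The cluster also overlapped the lncRNA gene *Gm32709*. From the first to the last position, the folds in replicate 2 were 6.78, 16.9, 18.98, 10.8, 16.3, and 7.86, and in replicate 3 they were 17.6, 35.8, 34.4, 18.9, 18.3, and 21.2. The neighbouring regions chr8:11258244-11259262 and chr8:11259719-11260306, of 1019 and 588 bp, were thus the strongest of the cluster in both libraries. *Col4a2* had 4 clusters, the widest at 2.68 kb. Next in the list were *Lama4* (2.51 kb), *Hspg2* (2.32 kb), and *Lamc1* (2.07 kb), and 15 of the 28 genes had no distal cluster. The background of the 3.57% was 1.27% of all protein-coding genes. Of the 13 listed genes with a distal cluster, 7.69% were given a member, against 5.34% of all genes with one. *Col4a1* and *Col4a2* had no shared region within 1 kb of a gene end.

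Of 34 LSEC markers, *Plxnc1*, a semaphorin receptor gene, was the only one given a member (2.94%, at place 241 with 3.49 kb). The background was 1.27% of all protein-coding genes. Distal clusters of any size were given to 24 of the 34 genes, and 4.17% of these 24 had a member, near the background of 5.34%. The widest of the others were those of *Bmp6* (2.99 kb), an angiocrine regulator of iron balance, *Ntn4* (2.78 kb), *Dnase1l3* (2.71 kb), *Bmp2* (2.42 kb), *Oit3* (2.33 kb), and *Kit* (2.22 kb). The scavenger receptor genes *Stab2* and *Stab1* reached 1.71 and 0.37 kb, and *Lyve1*, *Clec4g*, and *Clec1b* had none. *Egfl7*, also on this list, was given none either, although the member given *Agpat2* (place 100) contained a start of *Egfl7*. Over the alternative settings the count of LSEC markers given a member ran from 0 to 4.

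The lists for other liver cells, for lymphocytes, and for tissues that are not part of the liver held 87 entries, and none of these was given a member. The background of 1.27% is so low that a count of 0 in a list of this size is close to it. Any distal cluster was given to 23.9% of all protein-coding genes. Of the 87 entries, 13 (14.9%) had a smaller distal cluster, namely 1 of 20 hepatocyte genes, 3 of 16 stellate cell genes, 3 of 16 Kupffer cell genes, 2 of 8 cholangiocyte genes, 2 of 12 lymphocyte genes, and 2 of 15 genes of absent tissues.

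**Figure D4:**
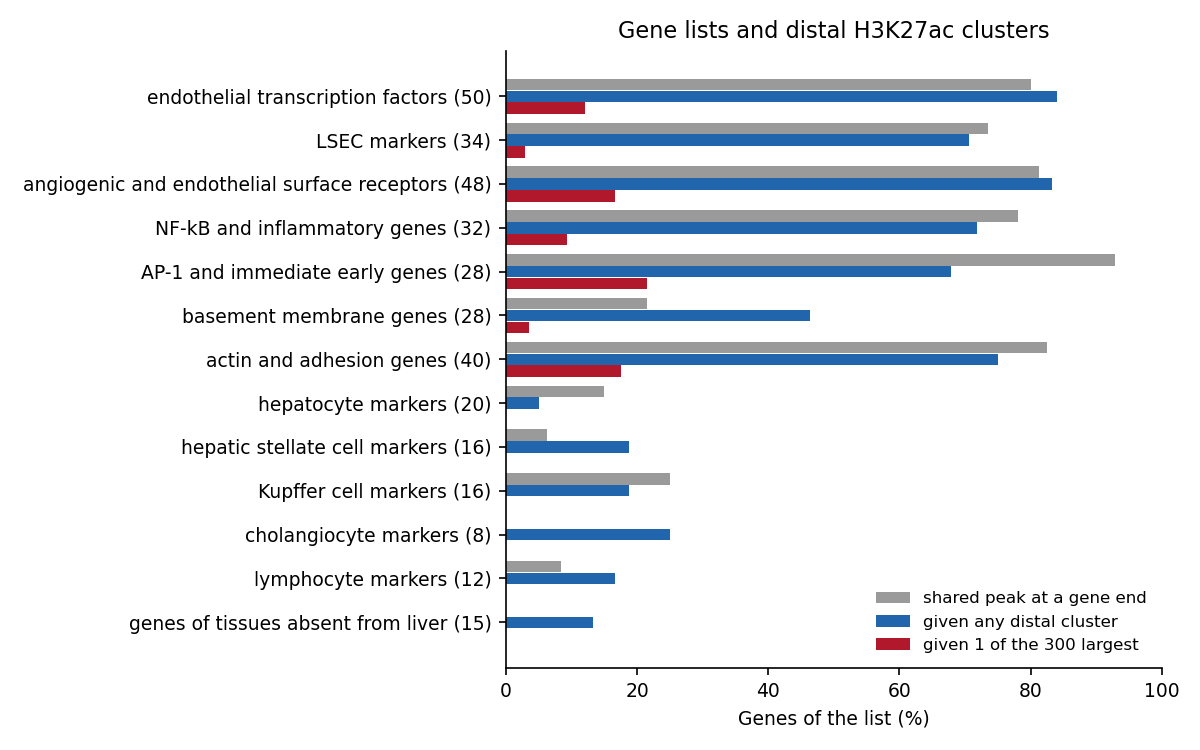
Percent of the genes of each list (x axis) with a shared region within 1 kb of a gene end (grey), given any distal cluster (blue), or given 1 of the 300 largest (red), with the number of genes in parentheses. Red bars reach 21.4% for immediate early genes and are absent from the 6 lists for other cells and tissues. Over all protein-coding genes the shares are 44.1% (grey), 23.9% (blue), and 1.27% (red).

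Some genes drew several members. There were 20 genes with 2 or more, led by *Fmnl2*, for a formin that builds actin filaments, with 3 in its body (5.33, 4.07, and 3.99 kb). Among those with 2 were *Sash1*, *Cemip2*, *Dab2*, *Irf2bpl*, *Tcf4*, *S1pr1*, *Myc*, *Arhgef3*, *Plpp3*, *Rfx8*, *Phldb2*, *Fndc3b*, *Tex14*, *Septin9*, *Bach2*, *Wwtr1*, *Pakap*, and *Sema6d*. *Plpp3*, for the enzyme that degrades lysophosphatidic acid in endothelium, had 7.0 kb outside and 4.96 kb inside its body, and the former included the highest fold of any member in replicate 2, 48.8. *Wwtr1* codes for TAZ, the effector of Hippo signalling. At *Tex14*, a gene of germ cells, the members overlapped genes of the small RNAs U1 and U3.

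Some members were also close to each other. There were 25 pairs of neighbouring members at most 100 kb apart. The nearest pair, given *Poc1b* and *Dusp6*, was 12.8 kb apart, just past the stitching distance. Several of these pairs were given the same gene, and no such count of the other clusters stands beside them. Genes with a member had a median of 3 distal clusters of any size, against 1 for other genes with a cluster, and *Pde4d*, the longest of these genes, had 16.

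Most members lay inside genes. For 189 of the 300 (63.0%), protein-coding bodies held over 50% of the merged bases, against 57.4% of the other clusters. There were 178 members wholly inside bodies, 21 partly inside, and 101 with no base in one. The latter lay 2.70 to 205 kb from their gene (median 21.5), and 12 were more than 100 kb away. The span of 22 members (7.33%) bridged an end of a protein-coding gene, such as those of *Ets1*, *Cerk*, and *Ttc7b*, so the acetylated regions then lay on both sides of it. Among other clusters of 2 or more regions, 5.21% did so.

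Members were found on all 19 autosomes, with 34 on chromosome 2 (4.78% of its clusters) and 23 on chromosome 11 (4.63%). The highest share, 6.47%, was that of chromosome 19. The X chromosome had none, although it held 194 distal clusters, and the widest of these had 2.48 kb.

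A distance from gene ends does not remove every promoter. The 11 members on the chromosome without windows in the table could not be checked. Of the other 289, 42 (14.5%) had a region on the start of a protein-coding transcript, which was an internal start of the gene they were given in 41 cases. The exception was the cluster given *Agpat2*, with the start of *Egfl7*, an endothelial secreted factor gene, under a region with folds of 6.78 and 6.42. A lncRNA start lay under a region of 45 members (15.6%), and either kind under 82 (28.4%), against 9.20% of the other clusters. Per region the shares for either kind were 7.13% of 1361 member regions and 6.87% of 11814 other distal regions. Taken apart, protein-coding starts lay under 3.31% of member regions and 4.47% of the others. For lncRNA starts the shares were 4.11% and 2.80%. The table of starts is not complete, so these are lower counts.

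The ends of the genes given to members were acetylated in most cases. A shared region lay within 1 kb of an end of 199 of the 279 genes (71.3%), against 60.7% of 4948 genes given only smaller clusters and 38.7% of 16660 genes with no distal cluster. The median highest fold of the regions found there was 16.3 in replicate 2 and 43.6 in replicate 3, against 16.9 and 47.3 at genes with smaller clusters and 15.9 and 47.2 at genes with none. The median width was 1.30, 1.10, and 0.975 kb in the same order. Either end was used because the strand was known for only 215 of the 279 genes. Median gene length fell from 71.5 to 41.9 to 12.5 kb over the same groups, and its part in the shares was not tested.

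Every member was wider and had a higher fold in replicate 3 than in replicate 2. Summed peak width was 0.825 to 6.93 kb in replicate 2 (median 2.23) and 3.17 to 13.4 kb in replicate 3 (median 4.07). The ratio of the libraries ran from 1.01 at the cluster given *Esp38* to 4.18 at *Zdhhc18* (median 1.90), close to the median of 1.86 in other clusters. Highest folds were 4.81 to 48.8 in replicate 2 (median 22.5) and 9.71 to 105 in replicate 3 (median 54.3), with the top value in replicate 3 at *Tspan9*. The member with the weakest peaks by q was that of *Ppara*, a nuclear receptor of fatty acid metabolism, with a highest −log10 q of 8.56 and 59.6. In other clusters the median highest folds were 9.49 and 23.6. In 173 members replicate 2 had more peaks than replicate 3, so that a merged region there held more peaks of replicate 2 than of replicate 3.

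The width of a merged region was therefore set mostly by replicate 3. Ordered by replicate 3 peaks alone, 299 of the members were among the 300 widest clusters. By replicate 2 peaks alone, 238 were, and 297 were among the 1000 widest, with the lowest, *Frmd8*, at place 1597. Both orders used only the clusters of shared regions on which the members were selected. A top 300 built from all peaks of replicate 3 alone overlapped 189 members, and 1 built from replicate 2 alone overlapped 231. Spearman's rank correlation between libraries over the 300 members, which share both libraries, is given as a description. It was 0.77 for summed peak width and 0.64 for highest fold, against 0.80 for highest fold in the other clusters. Between width and highest fold the rank correlation within members, which were selected on width, was 0.04 in replicate 3 and 0.18 in replicate 2. Of 290 members with 2 or more regions, the region of highest fold was the same in both in 199 (68.6%), and in 29 of 43 (67.4%) with 7 or more regions. The same held for 77.0% of 2341 other clusters with 2 or more regions. At 4 to 6 regions the shares were 65.4% of 179 members and 69.2% of 195 other clusters.

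**Figure D5:**
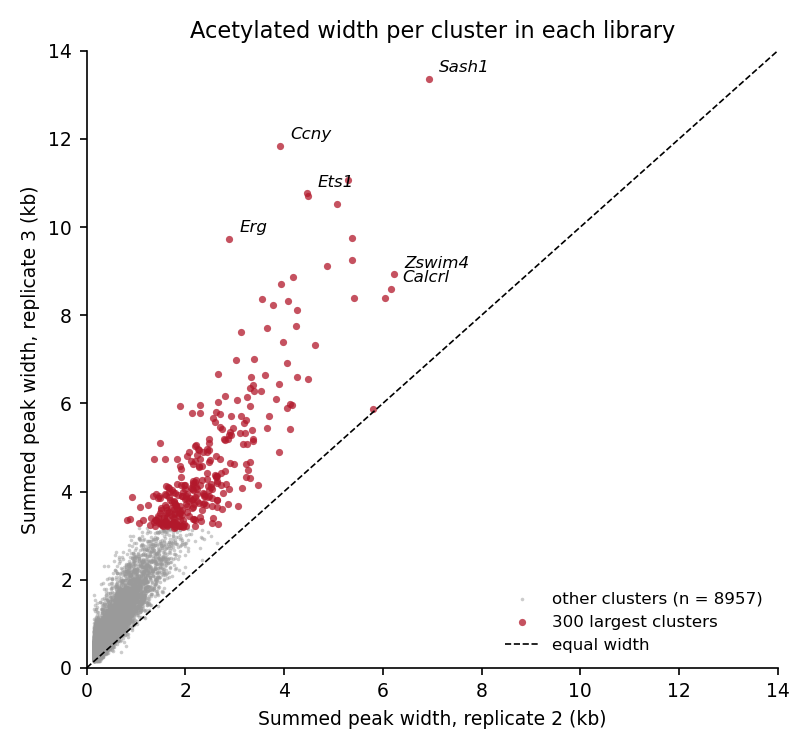
Summed peak width of each cluster in replicate 2 (x axis, kb) and replicate 3 (y axis, kb), with the 300 largest in red, the other 8957 in grey, and equal width as a dashed line. All red points lie above the line, the nearest to it being the cluster given *Esp38* (5.80 and 5.87 kb), and *Erg* lies far above it (2.89 and 9.74 kb).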

How the data were processed

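H3K27ac was measured in replicates 2 and 3 of mouse LSECs. The authors deposited 1 peak list per library, called per library and not on pooled reads. In these lists the deposited score is a rescaled −log10 q, the fold is the authors' ratio of peak signal to background, and the −log10 of the p-value and of the q-value follow as the authors' caller wrote them. The submitters' processing notes name mm10, cutadapt 0.4.4, BWA 0.7.17, Picard 1.67, MACS2 2.0.10, and bedtools 2.27.1, with no settings. Depth per sample is unknown because the lists hold no reads, so no interval was computed. A deeper or more enriched library yields more and wider peaks, and with them wider merged regions.

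Here, peaks overlapping by at least 1 bp were merged, filtered, stitched, and ordered as the report describes (Python 3.11.15, pandas 2.3.3, numpy 2.4.6). Gene ends came from a RefSeq table of GRCm38.p6, which gives neither strand nor exons. Promoter windows and microRNAs came from RefSeq tables of the same build, and peak sequences were not analysed here. The steps were tested on simulated clusters. With 1 condition and members selected on their values, no test was made.

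The genes named are those of the 25 largest members, of the lists, of genes with several members, of the limit, and of extremes, and others beside them (*Tex14*, the lncRNA and microRNA genes, *Egfl7*, and smaller clusters of listed genes) were chosen after their values were seen. A few genes that meet this rule are not reported here. The members and lists were chosen with earlier results of these data known. The alternatives were other thresholds, overlaps, distances, orderings, gene assignments, and single libraries.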

Additional observations from a re-analysis of the deposited data

How the results depend on the processing

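Of the 300 members, the top 300 of an alternative overlapped 272 with a stricter q-value (1e-05), 259 with equal numbers of peaks, 121 with a reciprocal overlap, 181 when ordered by number of regions, 156 by span, and 185 by fold times width. Using replicate 3 alone gave 189, and using replicate 2 alone gave 231. Over 14 settings, 25 members were overlapped in all, 12 of them among the 25 largest, and the median member was overlapped in 10. The genes *Ets1*, *Tcf4*, *Cdh5*, *Nrp2*, *S1pr1*, *Jun*, and *Myc* were named in all 14, *Erg* and *Calcrl* in 13, *Col4a1* in 10, and *Ets2* in 4. A gene counts as named when any cluster of the alternative top 300 was given it. Of the members themselves, those of *Cdh5*, *Nrp2*, *S1pr1*, and *Jun* were overlapped in all 14. That of *Ets1* was overlapped in 13, those of *Tcf4* in 14 and 7, and those of *Myc* in 12 and 7. Members in gene bodies numbered 160 to 225, and endothelial transcription factors 5 to 8.

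LSEC marker genes numbered 1 in the report and 0 with equal numbers of peaks. They numbered 2 with reciprocal overlap, 5 kb from ends, stitching at 5 kb, every gene within 50 kb, or distance from all RefSeq starts (added after seeing the data), 3 at 1 kb from ends, with ends of non-coding genes, or by number of regions, and 4 by span. With 1 library they numbered 2 to 4. The share of distal bases was 15.0% in the report, 16.8% with reciprocal overlap, 14.3% at 1 kb and 16.3% at 5 kb from ends, 15.9% with ends of non-coding genes, and 15.8% with RefSeq starts. It was 11.5% and 19.4% with stitching at 5 and 25 kb, 13.1% by number of regions, 12.4% by span, 13.1% by fold times width, and 13.6% to 15.2% with 1 library. No paired analysis was possible because the result comes from no test and the series holds 1 condition. The lists hold no reads, so a width in replicate 2 cannot be set against its depth.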
